A study of Mus musculus with 31 samples.

Results

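Kupffer cells are the macrophages that live in the blood sinusoids of the liver, and 10 genes that mark them (Timd4, Clec4f, Cd5l, Vsig4, Marco, Csf1r, Adgre1, C1qa, C1qb and C1qc) were followed here in whole livers of mouse pups. The members were picked by gene name and are 10 of the 43629 genes in the count table. Adgre1 is listed there under its older symbol Emr1 and was matched by its gene ID. All 10 were read in every liver, from a lowest count of 157 for Timd4 to a highest of 1892 for Cd5l, and all 10 were among the 17057 genes with enough counts to be tested.

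The livers came from 31 C57Bl/6J pups at postnatal day 14, injected every other day since postnatal day 2. Every pup carried the Dio1KO/Dio2KO genotype, so deiodinases 1 and 2 were deleted in all groups, which are the enzymes that turn the prohormone thyroxine (T4) into the receptor ligand triiodothyronine (T3), and no group had a wild-type genotype. The control group was Dio1KO/Dio2KO/Pax8Het with vehicle (n = 5). The other groups were Dio1KO/Dio2KO/Pax8KO, without the transcription factor Pax8 that forms the thyroid, and received vehicle (n = 5), T4 (n = 8), T3 (n = 6) or both hormones (T3+T4, n = 7). The labels give no hormone dose, and each library is 1 numbered animal. The numbers go partly with the group: T3 animals are 60 to 68, T3+T4 animals 72 to 85, and controls 42 to 50 and 59. Vehicle holds 37, 38, 55, 67 and 2019, and T4 runs from 40 to 71. What the numbers stand for is not labelled, and number and treatment cannot be fully told apart. Column names give the sex of all T3 and T3+T4 animals, both sexes in each. In the other groups only some animals have it, and sex did not enter the fit. The design asks whether the markers differ between pups with and without a thyroid, whether T4 or T3 moves them in pups without one, whether the hormones differ from each other, and whether their effects add up.

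Library totals ran from 4383769 to 7158919 counts and were larger after T3 (6070280 ± 481635, SD, n = 6) and T3+T4 (6353680 ± 534440, n = 7) than in control (5413170 ± 395847, n = 5). As a check of the labels, Dio1, itself a thyroid hormone target, had 776 to 1035 counts in control, 42 to 91 in vehicle, 82 to 369 after T4, 311 to 1260 after T3 and 690 to 1504 after T3+T4, so reads still fell in this targeted gene. Counts of Pax8 were 5 to 7 in control and 2 to 28 in the other groups, and those of Dio2 were 4 to 47 over all groups. The part of each gene that was deleted is not labelled, so these counts do not check the genotypes.

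Kupffer cells are seeded before birth and then renew themselves, and signals from the neighbouring endothelial, stellate and liver cells keep their identity. They take up bacteria, aged red cells and cell debris from portal blood. Of the members, Timd4 encodes a receptor for phosphatidylserine on dying cells and Clec4f a C-type lectin that in mice is used as a Kupffer cell marker. Cd5l encodes a secreted macrophage protein, Vsig4 a complement receptor and Marco a scavenger receptor for bacteria. Csf1r is the receptor for the growth factor that macrophages need to survive, Adgre1 is the F4/80 antigen, and C1qa, C1qb and C1qc encode the chains of C1q, which starts the classical complement cascade. Csf1r, Adgre1 and the C1q genes are also expressed by macrophages of other tissues, and Timd4 by resident macrophages of the peritoneum.

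Promoter sequence is shown for 3 members, chosen because Clec4f and Timd4 were the members called in a test and C1qb stands for the C1q chains, which lie side by side in the genome. RefSeq sequence (GRCm38.p6) upstream of the transcription start was given for 7 of the 10 members. Capitals mark matches, on either strand, to GAGGAA (the core bound by the macrophage factor PU.1), TGCTGA (part of the site of MAF factors) or AGGTCA (the repeat unit of the site of thyroid hormone receptors), and the motifs do not overlap each other in the printed windows. The windows end at the base before the annotated start and are written 5′ to 3′ on the strand of the gene.
Timd4: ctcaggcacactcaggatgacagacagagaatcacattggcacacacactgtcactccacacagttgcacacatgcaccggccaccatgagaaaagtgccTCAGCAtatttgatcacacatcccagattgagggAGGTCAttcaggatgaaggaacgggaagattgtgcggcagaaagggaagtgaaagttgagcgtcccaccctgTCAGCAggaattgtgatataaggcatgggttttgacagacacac
Clec4f: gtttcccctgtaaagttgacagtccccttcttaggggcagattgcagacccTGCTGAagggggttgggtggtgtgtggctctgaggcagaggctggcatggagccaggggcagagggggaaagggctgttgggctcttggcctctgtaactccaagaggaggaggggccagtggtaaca
C1qb: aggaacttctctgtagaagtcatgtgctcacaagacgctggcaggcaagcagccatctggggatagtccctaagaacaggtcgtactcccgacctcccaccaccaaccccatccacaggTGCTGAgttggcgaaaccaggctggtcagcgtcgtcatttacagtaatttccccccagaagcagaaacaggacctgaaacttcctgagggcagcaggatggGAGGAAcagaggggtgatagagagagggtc
The Timd4 window is chr11:46810549-46810798 (plus strand), the C1qb window is chr4:136886201-136886450 (minus strand) and the Clec4f sequence is chr6:83656188-83656366 (minus strand). The Clec4f window of 250 bases is printed only for its first 179 bases, because the last 71 lie within a longer GENCODE transcript. Its AGGTCA match falls in that unprinted stretch, 22 to 17 bases before the RefSeq start and on the opposite strand, while the Timd4 match lies 116 to 111 bases before the start. GAGGAA was found in the 250-base windows of 5 of the 7 members against 23.3% of all 32851 windows in the table, TGCTGA in 4 of 7 against 16.1%, and AGGTCA in 3 of 7 (Timd4, Clec4f and C1qc) against 14%. A match describes letters and is no evidence of a bound site, and no match says only that these letters are not in the window.

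In the GRCm38 annotation (GENCODE M21) all 10 members are protein-coding. Timd4 lies on chromosome 11 (46810800 to 46844332), Clec4f on 6 (83644542 to 83656187), Cd5l on 3 (87357881 to 87371073), Vsig4 on X (96247203 to 96293438), Marco on 1 (120474538 to 120505024), Csf1r on 18 and Adgre1 on 17 (57358691 to 57483527). C1qb (136880129 to 136886187), C1qc (136889804 to 136893065) and C1qa (136895917 to 136898803) follow each other on chromosome 4. Levels were scaled to library size as CPM, with TMM factors, and, to compare genes with each other, divided by exonic length in kilobases. Per kilobase, the highest mean level over the 31 livers was that of Cd5l (126 ± 17.3 CPM per kilobase, SD), followed by C1qa (120 ± 12.3), C1qb (117 ± 12.9), Clec4f (81.2 ± 12), C1qc (68.5 ± 7.53) and Vsig4 (63.2 ± 9.03). Marco (49.7 ± 11.9), Csf1r (31.6 ± 4.14), Adgre1 (31 ± 5.58) and Timd4 (26.9 ± 5.82) were lower. An alternative setting assumed a ceiling of 2 counts per exonic base, and the highest value among the members was 0.929 counts per base, in Cd5l. The levels per kilobase were not corrected for such a ceiling. Csf1r shares 873 exonic bases with a protein-coding gene on the opposite strand. Whether counting used strand is not stated, so its counts may hold reads of that gene.

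**Figure D1:**
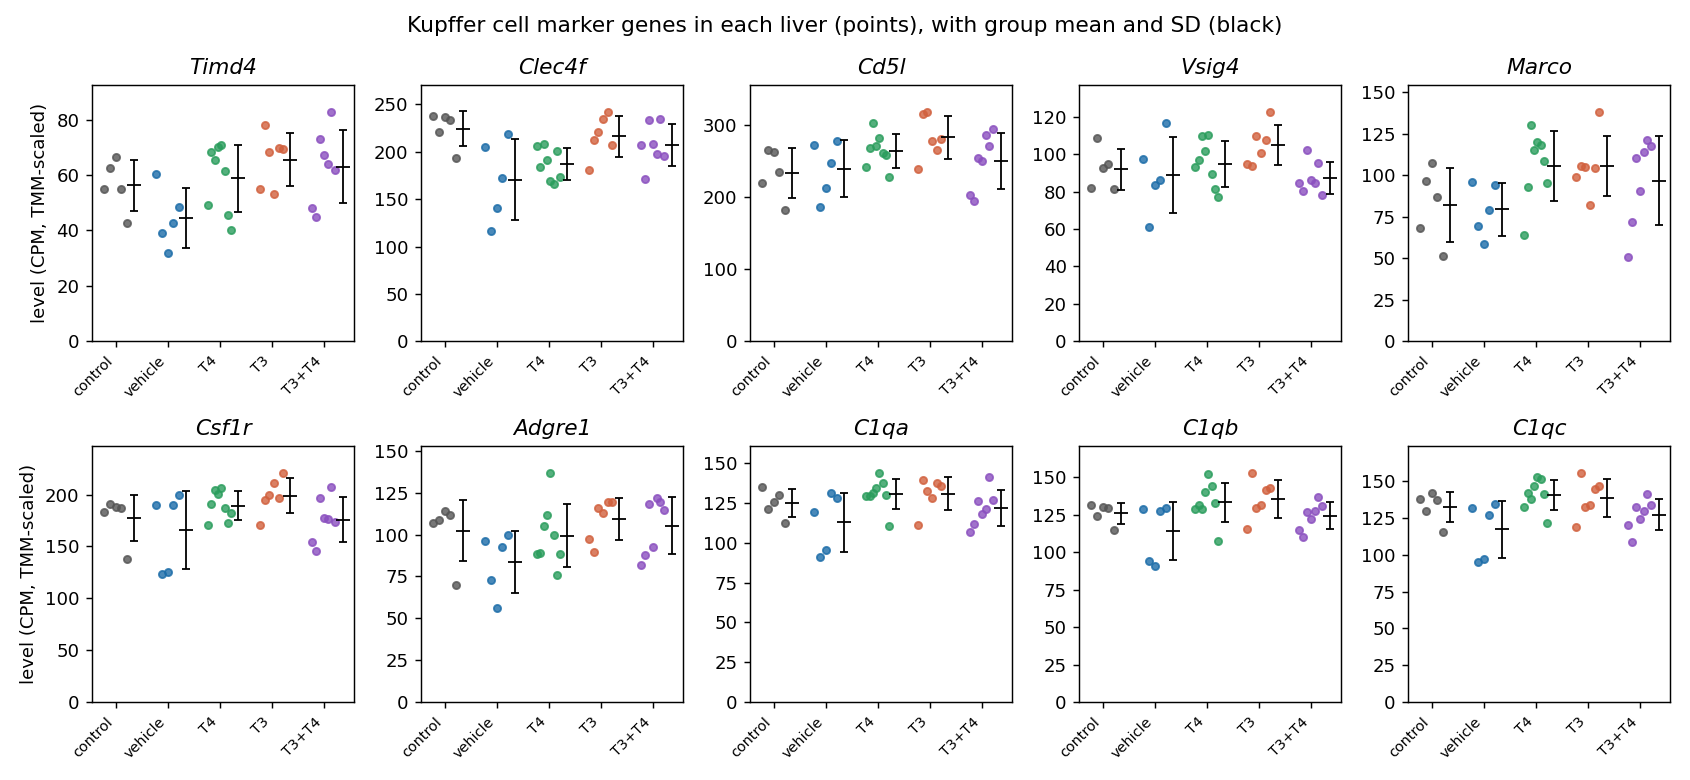
Level of each of the 10 Kupffer cell marker genes (CPM after TMM scaling, linear axis from 0) in each liver (points) of the 5 groups, with the group mean and SD in black. The vehicle group holds the lowest mean for 8 of the 10 genes, and the points of neighbouring groups overlap in every panel.

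Clec4f was the member whose level differed between pups without and with a thyroid. Its CPM in the 5 control livers was 238, 221, 237, 234 and 193 (animals 42, 47, 49, 50 and 59), and in the 5 vehicle livers 117, 141, 172, 219 and 205 (animals 37, 38, 55, 67 and 2019). The control values lay close together apart from animal 59, whereas the vehicle values ran from about those of control down to animal 37, so the groups overlapped. Clec4f was lower in vehicle by a log2 fold change of -0.40 ± 0.12 (SE; 95% interval -0.64 to -0.15; edgeR quasi-likelihood test, adjusted p = 0.0333), which is 0.76 of the control level. In this comparison 9.63% of all 17057 genes were called, so 1 called member of 10 is near the background. In whole liver RNA, fewer Kupffer cells and less of a transcript per cell cannot be told apart. The call was lost without any 1 of control animals 42, 49 and 50 or vehicle animals 37, 38 and 55 (adjusted p up to 0.103), when only the compared groups were fitted (-0.40, adjusted p = 0.118) and among animals numbered 54 to 85 (-0.01, adjusted p = 0.9996). The only control liver in that last setting is animal 59, which lay below its mean in all 10 members, so the value near 0 restates that liver and is no check of the call.

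Timd4 had the lowest vehicle mean of all groups and was the member called after T3. Its CPM in the vehicle livers was 39, 31.7, 42.9, 48.6 and 60.5 (animals 37, 38, 55, 67 and 2019) and in the control livers 54.9, 62.4, 66.4, 55 and 42.7 (animals 42, 47, 49, 50 and 59). The 6 T3 livers had 53.1 at the lowest, 68.8 at the median and 78.1 at the highest, so every T3 liver lay above 4 of the 5 vehicle livers, and vehicle animal 2019 lay within the T3 range. The log2 fold change of T3 against vehicle was 0.56 ± 0.17 (SE; interval 0.21 to 0.91; edgeR, adjusted p = 0.0444), a rise of 1.47 times. After T3+T4 the 7 livers ran from 44.8 through a median of 64.1 to 82.6 CPM, and Timd4 was again higher than in vehicle (0.50 ± 0.17, adjusted p = 0.0373, 1.42 times). Of all genes, 6.77% were called in T3 against vehicle and 15.8% in T3+T4 against vehicle, so 1 of 10 members is near or below the background in both. These 2 comparisons share the 5 vehicle livers and are not independent.

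Both Timd4 calls depended on single livers and on the model. The T3 call was lost without any 1 of vehicle animals 37, 38, 55 and 67 or T3 animals 61, 62, 65 and 68 (log2 fold changes from 0.46 upward, adjusted p up to 0.132), and the T3+T4 call without vehicle animals 37, 38 or 55 or T3+T4 animals 78, 79, 80, 84 or 85 (from 0.40 upward, adjusted p up to 0.130). With log2 library total in the model, Timd4 was not called, at 0.52 after T3 (adjusted p = 0.141) and 0.45 after T3+T4 (adjusted p = 0.163). Library totals were larger in these 2 groups, so total and treatment cannot be fully told apart in that fit. Among animals numbered 54 to 85, with 2 vehicle livers left, the log2 fold changes were 0.53 (adjusted p = 0.307) and 0.48 (adjusted p = 0.256).

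T4 alone gave no call among the members, where 0.41% of all genes were called. All 10 log2 fold changes against vehicle were above 0, as were those of 50.2% of all genes. The median of the members was 0.22, and that of all genes was near 0. An unadjusted p under 0.05 was found for 5 of the 10 and for 12.7% of all genes. The members varied together from liver to liver, so these counts are not of 10 independent results. C1qc had the smallest adjusted p (0.26 ± 0.08, adjusted p = 0.146). Timd4 ran from 40.3 through a median of 63.4 to 70.8 CPM in the 8 T4 livers, with 0.40 ± 0.16 (adjusted p = 0.279). Clec4f ran from 166 through 188 to 208 CPM, with 0.13 ± 0.11 (interval -0.09 to 0.35, adjusted p = 0.660), and the highest of its 8 T4 livers lay below 4 of the 5 control livers. In T4 against control, Clec4f had -0.26 ± 0.11 (adjusted p = 0.160), with 3.54% of all genes called and none of the members.

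After T3 the log2 fold changes had the same sign as after T4, and no member was called between the 2 hormones. All 10 log2 fold changes of T3 against vehicle were above 0 (median 0.26), as were those of 49.9% of all genes. An unadjusted p under 0.05 was found for 8 of 10 and for 21.9% of all genes, but Timd4 alone of the members passed the adjusted test. Here too the counts are not of 10 independent results. Clec4f ran from 180 through 217 to 242 CPM in the T3 livers, with 0.34 ± 0.11 (interval 0.11 to 0.58, adjusted p = 0.0666), and it was called with library total as the only scaling (0.38, adjusted p = 0.0444) and by DESeq2 (0.35, adjusted p = 0.04046). In T4 against T3, where 0.551% of all genes were called, no member was: Clec4f had -0.21 ± 0.10 (adjusted p = 0.349) and Timd4 -0.15 ± 0.15 (interval -0.46 to 0.15, adjusted p = 0.690). After T3+T4, 9 of the 10 log2 fold changes against vehicle were above 0, with Vsig4 at -0.03 and Clec4f at 0.28 ± 0.11 (interval 0.05 to 0.50, adjusted p = 0.0863). Between T4 and T3, a p that misses the threshold does not show that the hormones act alike on these genes.

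**Figure D2:**
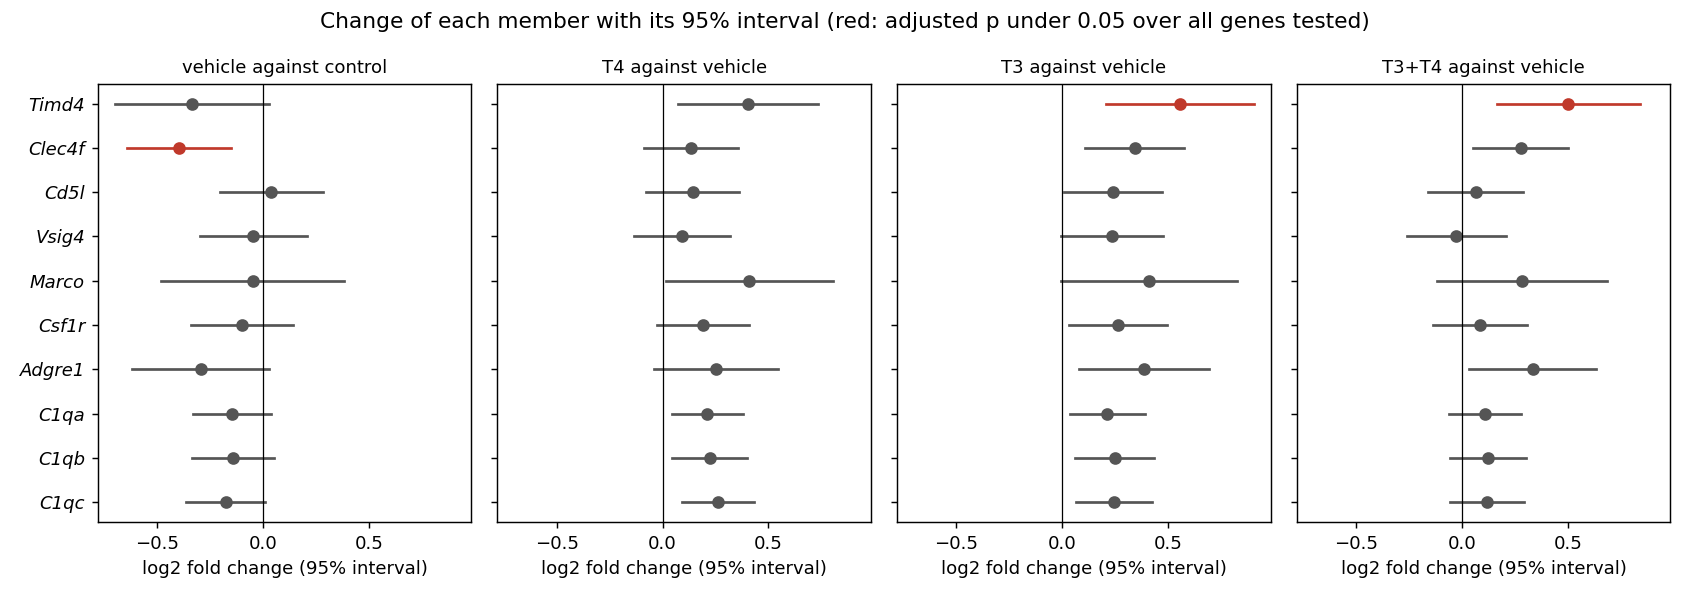
Log2 fold change of each member with its 95% interval (edgeR, all 31 livers) for vehicle against control and for T4, T3 and T3+T4 against vehicle, with called members in red. The T4 and T3 points all lie above 0, while 9 of the 10 vehicle points lie below 0, and all 4 panels share the vehicle livers.

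Cd5l, Vsig4 and Marco, the secreted protein and the receptors for opsonised and bare bacteria, were not called in any comparison. Cd5l averaged 233 ± 34.6 CPM (SD) over the 5 controls and 239 ± 39.4 over the 5 vehicle livers. The difference of 0.04 ± 0.12 on the log2 scale was the single one above 0 in that comparison. After T3 it ran from 239 through 279 to 317 CPM (0.24 ± 0.11 against vehicle, adjusted p = 0.214), and in T3 against control, where 0.211% of genes were called, it had 0.28 ± 0.11 (adjusted p = 0.210). Vsig4 ran from 93.9 to 122 CPM after T3 and from 78.3 to 102 after T3+T4, a difference of -0.26 ± 0.11 in T3+T4 against T3 (adjusted p = 0.317, 0.0117% of genes called). Marco was the most variable member, with a coefficient of variation of 24% over the 31 livers and values from 50.9 (T3+T4 animal 72) to 138 CPM (T3 animal 68). Its log2 fold change was 0.41 ± 0.19 after T4 (adjusted p = 0.369), 0.41 ± 0.20 after T3 (adjusted p = 0.234) and 0.28 ± 0.20 after T3+T4 (adjusted p = 0.347).

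Csf1r and Adgre1, which mark macrophages at large, were not called either. Csf1r measured 123 and 126 CPM in vehicle animals 37 and 38 and 190, 199 and 190 in animals 55, 67 and 2019, so the vehicle group held 2 livers well below and 3 at the control level (183, 191, 188 and 187 CPM, with animal 59 at 138). Its log2 fold change was -0.10 ± 0.12 in vehicle against control and 0.26 ± 0.11 in T3 against vehicle (adjusted p = 0.162). Adgre1 measured 73, 55.9, 92.7, 99.6 and 96 CPM in vehicle animals 37, 38, 55, 67 and 2019 against 107, 109, 114, 112 and 69.7 in the controls (-0.29 ± 0.16, adjusted p = 0.243). It had 0.39 ± 0.15 after T3 (adjusted p = 0.123) and 0.34 ± 0.15 after T3+T4 (adjusted p = 0.118).

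The 3 C1q chains, whose genes are neighbours, kept nearly constant ratios to each other. The count ratio of C1qb to C1qc averaged 0.951 ± 0.0279 (SD) over the 5 control livers and 0.972 ± 0.0258 over the 5 vehicle livers. With hormone it was 0.944 ± 0.0329 over 8 livers given T4, 0.976 ± 0.00449 over 6 given T3 and 0.977 ± 0.0209 over 7 given both. C1qa measured 90.8 and 95.3 CPM in vehicle animals 37 and 38 and 131, 128 and 119 in animals 55, 67 and 2019, against 112 to 135 in control. The low values of the same 2 livers recurred in C1qb (94.3 and 90.9) and C1qc (95.2 and 97.1). The log2 fold changes of C1qa, C1qb and C1qc were -0.15, -0.14 and -0.18 in vehicle against control, 0.21, 0.22 and 0.26 after T4, 0.21, 0.25 and 0.24 after T3, and 0.11, 0.12 and 0.12 after T3+T4, with SE from 0.08 to 0.10 and no call. The smallest adjusted p among these values was 0.0927 (C1qc after T3).

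The order of the groups varied by gene and was not resolved. The T3 mean was the highest for 8 members, the control mean for Clec4f and the T4 mean for C1qc. The vehicle mean was the lowest for 8 members, with control lowest for Cd5l and T3+T4 lowest for Vsig4. No 2 groups next to each other in these orders passed the test for any member, and the smallest adjusted p between neighbours was 0.236 (Timd4, control against vehicle). None of the 10 members was called in T3+T4 against T4 (8.61% of genes called) or in T3+T4 against control, where 0% of genes were called, 7.19% of genes had an unadjusted p under 0.05 and no member did. The interaction of T3 and T4, the departure from the sum of both effects on the log2 scale, was below 0 for all 10 members (median -0.35, that of all genes near 0). Of them 7 had an unadjusted p under 0.05, as had 10.4% of all genes, and none was called, where 0.135% of genes were. C1qc had the smallest adjusted p (-0.39 ± 0.12, adjusted p = 0.181). All these contrasts share livers, so the common direction is not independent support.

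The 10 members varied together from liver to liver. In 4 livers all 10 lay below their own mean over the 31 livers: vehicle animals 37 and 38, by a mean of -0.51 and -0.50 on the log2 scale, control animal 59 (-0.33) and T3+T4 animal 77 (-0.26). In 6 livers all 10 lay above it, namely T4 animal 46, T3 animals 62, 65 and 68, and T3+T4 animals 78 and 84. The other vehicle livers stood at -0.10 (animal 55), 0.07 (67) and 0.04 (2019) over the 10 members. For the called members other vehicle livers were low too, since Clec4f in animal 55 and Timd4 in animals 55 and 67 lay below at least 4 of the 5 controls. The totals of animals 37 and 38, at 5625280 and 5096390 counts, were within the range of the other libraries.

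**Figure D3:**
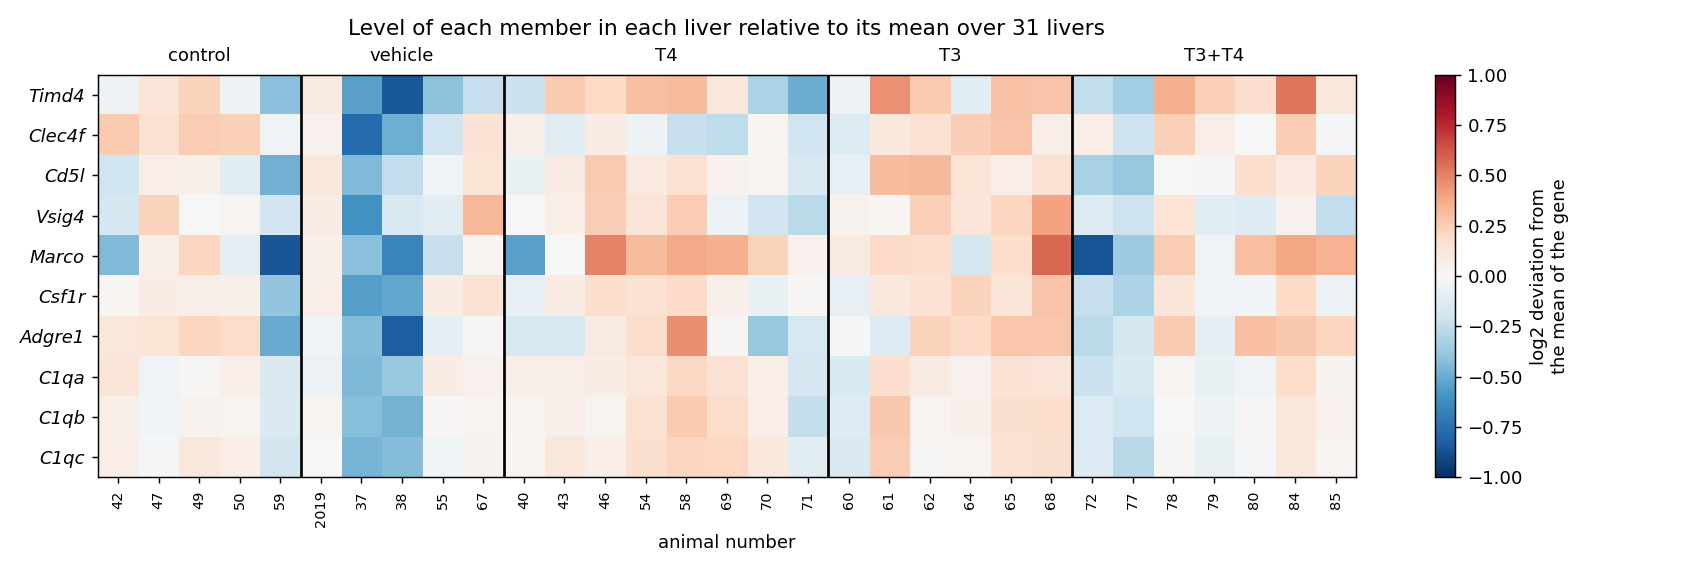
Log2 deviation of each member (rows) from its own mean over 31 livers in each liver (columns, by animal number within group), in blue where lower and red where higher. Vehicle animals 37 and 38 and control animal 59 are blue in all 10 rows, and T3 animals 65 and 68 are red in all 10.

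Over the 31 livers all 45 pairs of members had a positive correlation of log2 CPM. Pearson's r ran from 0.26 (Clec4f and Marco) to 0.97 (C1qb and C1qc) with a median of 0.71, and Spearman's rho had a median of 0.62. In permutation tests (100000 resamples, 2-sided, adjusted over the 45 pairs) 44 pairs had an adjusted p under 0.05 by r and 40 by rho. The pairs that missed by rho were those of Clec4f with Cd5l, Marco and each C1q chain. The lowest r among those 44 was 0.455, a value that 4.62% of all pairs of the 17057 tested genes reached. Leaving out the 2 livers farthest from the median of 1 gene of each pair lowered the median r to 0.62 and the lowest r to 0.01 (Clec4f and Marco). Clec4f then had r from 0.18 to 0.23 with Cd5l and the C1q chains. With Timd4, Vsig4, Csf1r and Adgre1 its r was 0.32 to 0.35. After the group means were subtracted, the median r was 0.70, the range 0.30 to 0.97, and 44 pairs passed by r and 44 by rho, so the members varied together among livers of the same group. There the lowest r that passed was 0.464, which 4.23% of all pairs of tested genes reached. Csf1r had the highest mean r with the other 9 members (0.79) and Clec4f the lowest (0.55). All genes of a liver share its library, its total and its scaling.

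**Figure D4:**
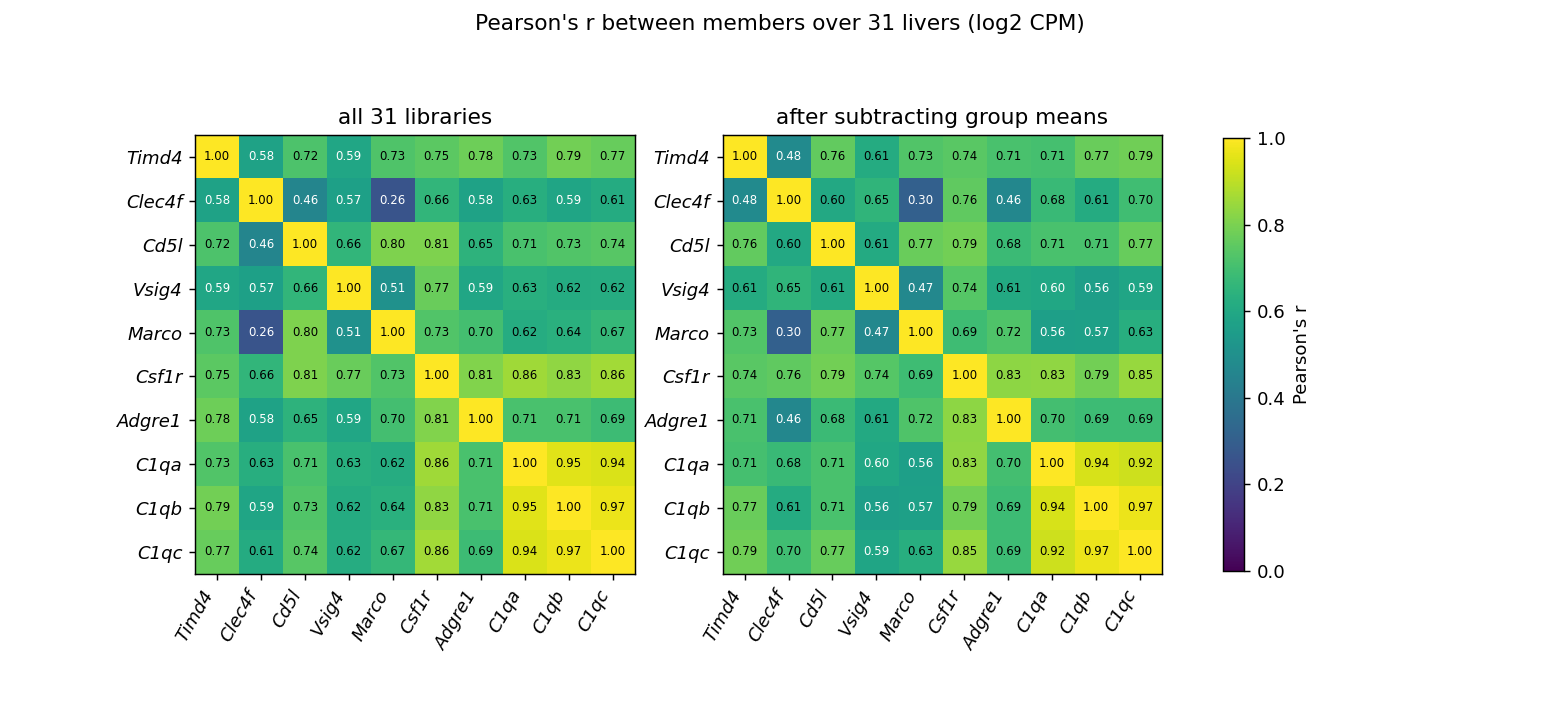
Pearson's r of log2 CPM between each pair of members over 31 livers, as measured (left) and after group means were subtracted (right), with r printed in each cell. The C1q chains form a block of 0.92 or higher, and the Clec4f row holds the darkest cells, down to 0.26 with Marco.

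The level of Clec4f relative to the other members also varied by group. Its count ratio to Cd5l was 1.08, 0.831, 0.900, 0.999 and 1.07 in control animals 42, 47, 49, 50 and 59, and 0.627, 0.662, 0.699, 0.785 and 0.751 in vehicle animals 37, 38, 55, 67 and 2019. The groups did not overlap, although Cd5l itself was not called, and control animal 59, low in every member, kept a high ratio. With hormone the ratio averaged 0.713 ± 0.0808 (SD) over 8 livers given T4, 0.770 ± 0.0919 over 6 given T3 and 0.839 ± 0.127 over 7 given both, each overlapping both vehicle and control. Relative to the mean log2 level of the other 9 members, Clec4f was at 0.97 ± 0.11 in control, 0.68 ± 0.14 in vehicle, 0.60 ± 0.22 after T4, 0.73 ± 0.14 after T3 and 0.81 ± 0.15 after T3+T4. Of the count ratios of all 45 pairs, 5 did not overlap between control and vehicle (Clec4f with Cd5l, Csf1r, C1qa and C1qc, and Timd4 with Cd5l), 3 between control and T4 (Clec4f with each C1q chain), 1 between vehicle and T3+T4 (Clec4f with Vsig4) and none in the other 7 pairs of groups. For comparison, the levels of single genes did not overlap for 9.29% of all tested genes between control and vehicle, for 1.8% between control and T4 and for 8% between vehicle and T3+T4. The ratios were chosen after their values were seen and carry no test. The 5 of 45 is near the share of single genes, which is an unlike measure. No share was computed for ratios of other gene pairs, and ratios that share Clec4f are not independent. The counts of pairs are therefore a description only.

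Of 15 other genes known from Kupffer cells, 2 fell in vehicle against control: Folr2, a folate receptor (-0.70 ± 0.18, adjusted p = 0.0134), and Slc40a1, the iron exporter ferroportin (-0.34 ± 0.08, adjusted p = 0.00849). Folr2 averaged 43.7 ± 3.5 CPM (SD) over the 5 controls against 26.9 ± 10 over the 5 vehicle livers, and the groups overlapped. After T3, 2 of 15 rose, Siglec1, a sialic acid receptor (1.08 ± 0.26, adjusted p = 0.0135), and Folr2 (0.66 ± 0.17, adjusted p = 0.0207). The same 2 genes rose after T3+T4 (Siglec1 0.80 ± 0.26, Folr2 0.57 ± 0.17), and 0 of 15 passed after T4, where 3 had an unadjusted p under 0.05. These counts stand beside 9.63% of all genes called in vehicle against control, 6.77% after T3 and 15.8% after T3+T4, and 2 of 15 is near the first and the last of these shares. The median log2 fold change of the 15 genes was -0.06 in vehicle against control, 0.10 after T4, 0.32 after T3 and 0.05 after T3+T4. Of these calls, that of Folr2 was lost without vehicle animal 38 in vehicle against control (adjusted p = 0.0516), those after T3 without animal 37 (Siglec1 and Folr2) or 38 (Folr2), and those after T3+T4 without animal 37 or 38, without animal 55 (Siglec1) or without T3+T4 animal 84 (Folr2). Among animals numbered 54 to 85, which leave 1 control and 2 vehicle livers, 0 of the 15 were called in each of these comparisons. Slc40a1 is also expressed by other cell types of the liver.

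Among 18 genes shared by macrophages in general, Trem2, a lipid receptor, rose in vehicle against control (1.46 ± 0.39, adjusted p = 0.0164) and fell in T3+T4 against vehicle (-1.11 ± 0.33, adjusted p = 0.0225), from means of 0.8 CPM in control, 2.3 in vehicle and 1.1 after T3+T4. Both Trem2 calls were lost without vehicle animal 67 (0.88, adjusted p = 0.163, and -0.53, adjusted p = 0.317), and at these levels the gene was not tested once 1 was subtracted from every count. After T3, 2 of 18 rose, the Fc receptor gene Fcgr1 (0.90 ± 0.20, adjusted p = 0.00604) and the scavenger receptor gene Msr1 (0.44 ± 0.10, adjusted p = 0.00995). Both calls held with any 1 liver left out, but each was lost in 5 of 23 other settings. Fcgr1 also rose after T3+T4 (0.56 ± 0.19, adjusted p = 0.0446), a call lost without any 1 of 8 livers (0.45 or more, adjusted p up to 0.142). Of 7 genes for signals that Kupffer cells receive from their niche, such as Csf1 and Il34, 6 were tested and 0 passed in any of the 11 comparisons, with at most 2 at an unadjusted p under 0.05 in a comparison.

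Of 13 genes for complement proteins that work with C1q, 4 fell after T3: C1ra, C1rb, C1s1 and C1s2, which encode the proteases that C1q activates. C1s2 had -0.43 ± 0.09 (adjusted p = 0.00346), C1rb -0.30 ± 0.07 (adjusted p = 0.0123) and C1s1 -0.31 ± 0.07 (adjusted p = 0.0129). After T3+T4, 3 fell, C3 (-0.26 ± 0.07, adjusted p = 0.00746), Serping1, the C1 inhibitor (-0.27 ± 0.07, adjusted p = 0.0117), and C1s2 (-0.24 ± 0.08, adjusted p = 0.0484), the last called in only 3 of 24 other settings, all of them with 1 liver left out, and lost under each of the other 12 (adjusted p up to 0.629). The C1s1 call after T3 was lost without vehicle animal 55 (adjusted p = 0.0617). With log2 library total in the model 1 of 13 was called after T3 and 0 after T3+T4. Of all genes, 6.77% were called in the first comparison and 15.8% in the second. C3 is made largely by hepatocytes, and which cells made the transcripts of the 4 proteases was not measured. Of the 7 hepatocyte genes 2 fell after T3 and 5 after T3+T4, with all 7 below 0 in both. Their part in the result was not tested. In the same comparisons all 3 C1q chains had log2 fold changes above 0, and whether these differ from those of the partners was not tested. C1ra with C1rb, and C1s1 with C1s2, are close copies, and reads shared between copies may have been split in counting.

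The genes whose level followed the members most closely were Sdc3, a syndecan (r = 0.88 with the mean of the 10 members' standardised log2 CPM over 31 livers), Cfp, the complement factor properdin (0.86), Ptgs1, a cyclooxygenase (0.86), Axl, a receptor for dying cells (0.84), and Cd68, a lysosomal macrophage protein (0.83). After group means were subtracted the first 5 were Sdc3 (0.88), Cfp (0.85), Laptm5 (0.82), Ear2 (0.82) and Slc11a1 (0.82). These are the 5 highest by each measure among the genes tested other than members, Gm-numbered and Rik genes, given as a description with no test.

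Markers of other cells also varied between these livers and groups. In vehicle animals 37 and 38 the summed levels of the 15 other Kupffer cell genes (919 and 957 CPM) and of the 18 general macrophage genes (1123 and 1144) were the 2 lowest of the 31 livers, as were those of the members (949 and 993). Low sums in these 2 livers were not particular to macrophage genes. Ranked from the lowest of 31, they stood at 2 and 3 for erythroid, 2 and 4 for lymphocyte and 6 and 1 for dendritic cell genes. For peritoneal macrophage genes they ranked 4 and 2, for monocyte genes 6 and 7 and for granulocyte genes 8 and 7. Sinusoidal endothelial genes ranked 7 and 21, stellate cell genes 10 and 2, and hepatocyte genes 26 and 31. Pancreatic acinar genes ranked 30 and 5, cholangiocyte genes 29 and 14, and skeletal muscle genes 15 and 2. The summed level of 7 hepatocyte genes averaged 5696 ± 193 CPM (SD) in control, 6062 ± 130 in vehicle, 5514 ± 372 after T4, 5100 ± 376 after T3 and 4967 ± 446 after T3+T4, and 5 of 7 fell in T3+T4 against vehicle. That of 10 granulocyte genes was 127 ± 45.4 in control, 240 ± 125 in vehicle, 262 ± 151 after T4, 271 ± 143 after T3 and 160 ± 53 after T3+T4. Among 10 stellate cell genes Col3a1 and Lrat fell in vehicle against control (summed level 1362 ± 12.6 in control and 1171 ± 107 in vehicle), and among 10 sinusoidal endothelial genes Kdr and Stab1 rose there (1242 ± 79.7 and 1366 ± 124). Their part in the results for the members was not tested.

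Further lists were read in the same way. The summed level of the monocyte genes (1264 ± 62.6 CPM in control, 1229 ± 131 in vehicle) was mostly Fn1, which hepatocytes also make. In vehicle against control, 7 of the 10 log2 fold changes were above 0 (median 0.53), and 3 of 10 had an unadjusted p under 0.05. Of 7 genes of peritoneal macrophages, which also express Timd4, Prg4 rose in T3+T4 against vehicle (0.68 ± 0.19, adjusted p = 0.0157, and 0.0519 without vehicle animal 38), from means of 91.5 CPM in vehicle to 147 after T3+T4, with 140 in control. The other 6 genes gave no call in these comparisons, and of all 7, 5 were above 0 in vehicle against control (median 0.13) and 2 in T3+T4 against vehicle (median -0.05), so their summed level (215 ± 15.4 CPM in control, 172 ± 15 in vehicle, 176 ± 37.3 after T4, 211 ± 12.5 after T3 and 226 ± 28.5 after T3+T4) followed Prg4. Gata6, the defining factor of those macrophages, stood at means of 29.9 to 33.6 CPM in all groups. Which cells of the whole liver the reads of Gata6 and Prg4 came from was not tested. None of 8 dendritic cell, 10 granulocyte, 11 lymphocyte, 10 erythroid and 6 cholangiocyte genes tested was called in vehicle against control or in a treatment against vehicle. Genes of neighbouring tissues differed by group. In T3 against vehicle, the comparison of a Timd4 call, all 6 skeletal muscle genes tested were higher and 4 of 8 pancreatic acinar genes were lower by the edgeR test. The summed muscle level averaged 2.43 CPM in control (1.65 to 3.22), 4.45 in vehicle (2.02 to 10.6), 71.2 after T4 (2.23 to 269), 130 after T3 (5.16 to 429) and 23.7 after T3+T4 (2.55 to 93.7). The summed acinar level averaged 68.8 CPM in control and 88.4 in vehicle (16 to 238, the highest in animal 37). With hormone it was 33.3 after T4, 30.1 after T3 (21.9 to 38.7) and 102 after T3+T4 (30.6 to 273). The part of muscle and acinar genes in the results for the members was not tested. Leaving out the livers with raised acinar or muscle genes leaves 1 control, 3 vehicle, 4 T4, 4 T3 and 2 T3+T4 livers, so the lost calls there have fewer livers behind them and do not show that the calls depend on the livers left out. Clec4f then had -0.43 in vehicle against control (adjusted p = 0.658), and Timd4 0.80 after T3 (adjusted p = 0.195) and 0.67 after T3+T4 (adjusted p = 0.204).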

How the data were processed

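The count table is the authors' and lists 43629 genes in 31 livers. Its values are raw counts as deposited, whole numbers that were not scaled to a common total. No value is below 1, and 50.1% of them equal 1, as if 1 had been added throughout, which no label or header records. The submitters' processing notes name bcl2fastq, Trimmomatic, BWA (version 0.7.10) and DESeq without saying what each did. They give the build as GRCh38, whereas mm10 stands in the column names. Which program counted reads, with what annotation and whether by strand, is not given in the sources used here. Per the labels' protocols, TRIzol extracts went into a stranded mRNA kit.

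The 17057 genes that filterByExpr kept were scaled with TMM and entered the quasi-likelihood test of edgeR 4.0.16 in R 4.3.3. Every library was fitted together, each of the 5 groups having its own mean, and p-values of the 11 comparisons were adjusted by Benjamini-Hochberg over all tested genes, with calls at 0.05. The SE is the log2 fold change divided by the root of the F statistic. The fit was tested on simulated data. The p-values of the fit set each difference against the spread between animals within groups, estimated over all 5 groups. Library size limits the precision of low counts. Correlations were tested by permutation in Python 3.11.15.

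Alternatives were median-of-ratios factors, library total alone, no filter, a mean of at least 5 CPM, only the compared groups and DESeq2 1.42.0. Others were subtracting the added 1, correcting for an assumed ceiling of 2 counts per base of exon, and a covariate of log2 library total. Further ones kept only animals numbered 54 to 85, dropped livers whose acinar or muscle genes averaged at least 5 CPM, or dropped each library in turn. The acinar list without Cela1 and the correlations under other scalings were added after seeing the data.

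The members and the 16 other gene lists were chosen with earlier results of these data known. Named genes were the 10 members, up to 3 called genes per list of related genes and comparison by adjusted p, the 5 genes most like the members by each measure, and genes of other cells beside the results. Named beyond that rule, without values, were C1ra, also called after T3, and Csf1 and Il34 as examples of their list. Tf, listed among hepatocyte genes, was not matched. Promoter sequence came from RefSeq (GRCm38.p6). The result for 1 listed gene is not reported here.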

Additional observations from a re-analysis of the deposited data

Results flagged for a closer look

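In the 5 control livers, animal 59 had 138 CPM of Csf1r where the nearest other liver had 183 (gap 0.864 of the group's range, against a critical value of 0.71 for 5 samples), and 69.7 CPM of Adgre1 where the nearest had 107 (0.835). Among the 8 T4 livers, animal 71 had 111 CPM of C1qa where the nearest had 129 (0.560 against 0.526 for 8 samples). In each case 1 sample lay far below the others of its group. These are 3 of 50 groups checked over 10 members and 5 groups, where chance alone marks about 1 in 20. Without animal 59, the log2 fold change of Cd5l in vehicle against control was -0.0387.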

How the results depend on the processing

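Of 1103 member log2 fold changes recomputed for 46 results, 1019 kept direction and side of the threshold, 36 lost it, 9 gained it and 39 changed sign. The number of members called in vehicle against control was 0, not 1, with only the compared groups fitted, among animals 54 to 85 and without livers with raised acinar (with or without Cela1) or muscle genes, and 0 to 1 with 1 library left out. In T3 against vehicle it was 2 under library total alone and DESeq2, 0 under compared groups only, the library total covariate, animals 54 to 85 and both other-tissue settings, and 0 to 2 with 1 library left out. In T3+T4 against vehicle it was 2 without a filter, 0 under those same 5 settings, and 0 to 2 with 1 library left out. The other 8 counts stayed at 0. Where libraries were left out, fewer samples were tested; otherwise the cause was not tested.

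Signs that changed in vehicle against control were, among animals 54 to 85, Timd4 0.0787, Vsig4 0.30, Marco 0.73, Csf1r 0.48, Adgre1 0.44, C1qa 0.18, C1qb 0.14 and C1qc 0.16. The only control liver there is animal 59, low in all 10 members, and these values restate that liver, which the fit assumes to vary like the other groups. Without livers with raised acinar or muscle genes, which leave 1 control, they were Vsig4 0.22 and Marco 0.17, and with Cela1 left out of that list Vsig4 0.21, Marco 0.36 and Csf1r 0.0857. With 1 library left out, Cd5l ranged from -0.0387 to 0.12, Vsig4 from -0.16 to 0.0645 and Marco from -0.18 to 0.0661. In T4 against vehicle, animals 54 to 85 gave Clec4f -0.11, Cd5l -0.00864, Vsig4 -0.14 and Csf1r -0.0322, and Vsig4 ranged from -0.0180 to 0.21 with 1 library left out. In T3+T4 against vehicle, animals 54 to 85 gave Cd5l -0.0550, Csf1r -0.13, C1qa -0.0739, C1qb -0.0328 and C1qc -0.0293, the other-tissue settings Cd5l -0.0542 and -0.0465, and Vsig4 was 0.0125 under library total alone and 0.0512 without a filter. There, with 1 library left out, Cd5l ranged from -0.0133 to 0.13, Vsig4 from -0.14 to 0.0911 and Csf1r from -0.0033 to 0.16. None of these values passed the threshold. Of 240 counts of called genes in the lists of related genes, 193 stayed within 1.5 times and 47 moved. Of 413 recomputed log2 fold changes of the called genes named from other lists, 295 stayed called, 118 lost the call and 0 changed sign. The 44 correlated pairs were 44 under each other scaling. No paired analysis was possible because the groups share no animal numbers.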
